A study of Mus musculus with 8 samples.

Results

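Retinoic acid is made inside cells from vitamin A, and 8 genes of its synthesis, binding, breakdown and signalling were read in the left ventricle of female C57BL/6 mice across pregnancy. The genes were the retinol-binding protein gene Rbp7, the retinol and retinal converting enzymes Rdh10 and Dhrs3, the retinal dehydrogenases Aldh1a1 and Aldh1a2, the retinoic acid hydroxylase Cyp26b1, and the nuclear receptors Rarb and Rxrg. They were taken by gene symbol from 22180 genes with a probe set of a single annotated symbol. Each of the 8 had 1 such probe set. The genes were chosen by name with earlier results of these arrays in view, that is, with their log2 values in the 4 states known, and the probe set of a gene was selected on its mean over the arrays. Their differences between states are therefore given as a description, without p-values. The set holds receptors and a breakdown enzyme beside genes of synthesis and retinol binding.

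The mice were purchased, age-matched at 3 to 4 months, and either non-pregnant or timed pregnant. The 4 states, with 2 arrays each, were non-pregnant mice in diestrus (a phase of the estrous cycle; replicates 2 and 3), day 12 of pregnancy (replicates 2 and 3), day 19 of pregnancy (replicates 1 and 2) and day 1.5 after birth (replicates 2 and 4). The protocol text gives the day 19 group as 18/19 days. RNA came from 1 of 3 pieces of each left ventricle. No source used here says how arrays correspond to animals, so all errors measure the spread between these arrays, which may be technical.

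Retinol enters cells from the blood and is held in the cytoplasm by small retinol-binding proteins. Retinol dehydrogenases such as Rdh10 oxidise it to retinal, and reductases such as Dhrs3 turn retinal back to retinol. Retinal dehydrogenases of the Aldh1a family then make retinoic acid in a step that is irreversible, and Cyp26 enzymes destroy it. Retinoic acid acts through retinoic acid receptors paired with retinoid X receptors on DNA. In the embryo, Aldh1a2 is the main source of retinoic acid for heart formation, and the epicardium, the outer mesothelial layer of the heart, expresses it.

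Values are log2 RMA intensities, so a difference of 1 is 2-fold, and levels are compared only within a gene. Over all probe sets the arrays correlated at 0.980 to 0.992 among 7 arrays, and day 19 replicate 2 correlated at 0.969 to 0.977 with the others. The ventricular markers stood high on every array, with Myh6, the alpha myosin heavy chain, at 12.34 to 12.60 and Tnnt2, cardiac troponin T, at 12.58 to 12.96. The atrial light chain Myl7 was 5.12 and 8.24 in diestrus, 4.69 and 10.04 at day 12, 11.76 and 4.56 at day 19 and 4.63 and 4.81 post-partum, so diestrus replicate 3, day 12 replicate 3 and day 19 replicate 1 stood apart from the other arrays. Macrophage markers averaged 1.40 log2 above the diestrus mean on day 19 replicate 2, against 0.114 on day 19 replicate 1. Against diestrus, the 6 mural markers averaged from 0.103 to -0.489 over the pregnant and post-partum arrays, the 3 measured Schwann and nerve markers from -0.140 to -0.517, and the 2 measured red cell markers from 0.325 to 1.12.

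Among the 8 genes, Aldh1a2 and Rbp7 differed most between states. Aldh1a2 was near its diestrus level at day 12, higher on both day 19 arrays and highest on both post-partum arrays, where its mean was 2.27-fold that of diestrus. Rbp7 was highest at day 12, where its mean was 1.89-fold that of diestrus, and stayed above diestrus on all 6 pregnant and post-partum arrays. Aldh1a1 was lower post-partum than in diestrus, at 0.677-fold. The group means of Rdh10, Dhrs3, Cyp26b1, Rarb and Rxrg spanned 0.09 to 0.28 log2 per gene. In whole ventricle, fewer cells of a type and less RNA per cell cannot be told apart, and this holds for every value below.

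**Figure D1:**
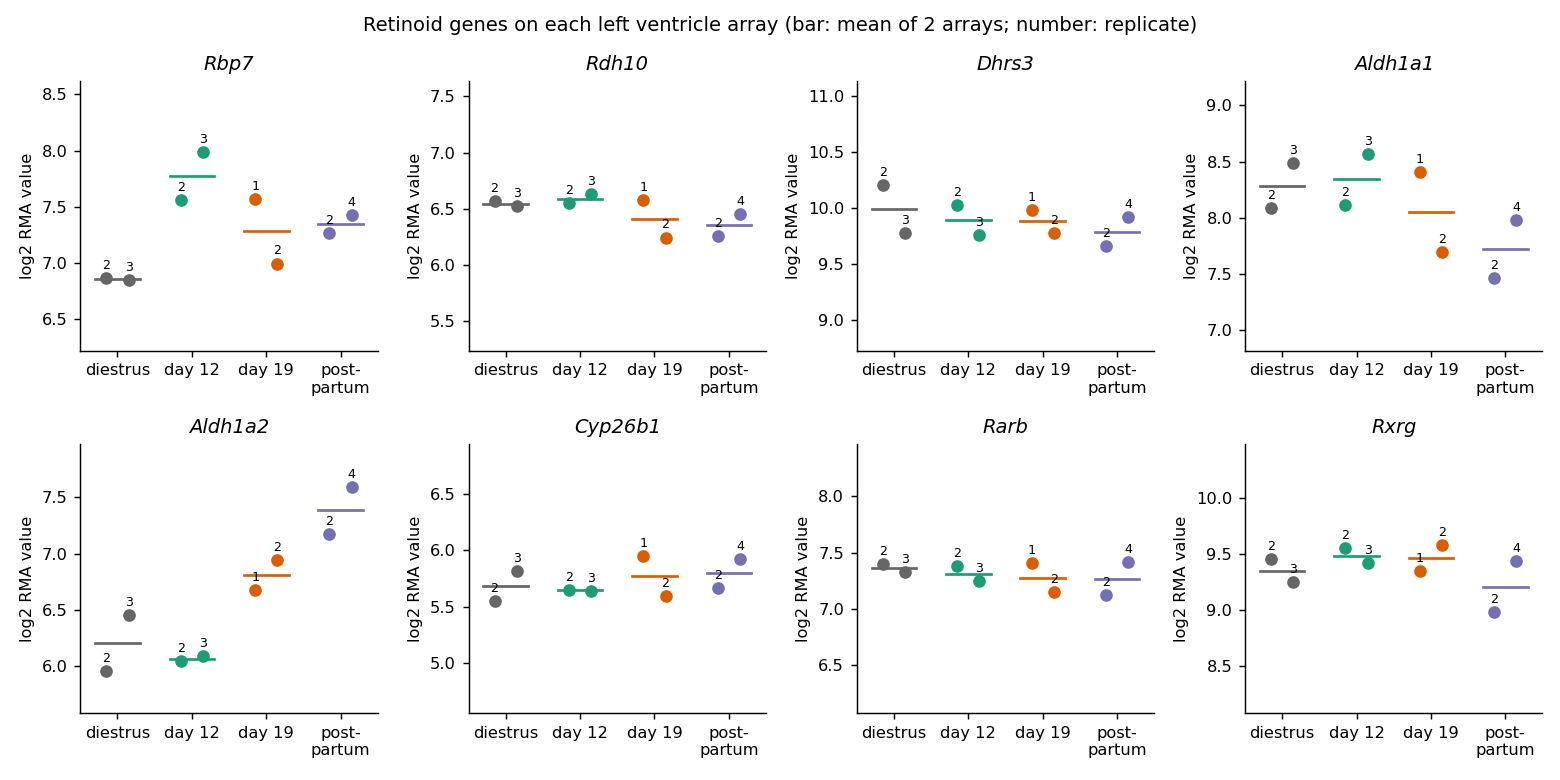
Log2 RMA value (vertical axis, the same span in every panel) of the 8 retinoid genes on each array, by state; points are arrays labelled with their replicate number and bars are means of 2 arrays. Aldh1a2 reaches 7.18 and 7.60 post-partum, Rbp7 7.56 and 7.99 at day 12, and the Rarb arrays all lie between 7.12 and 7.42.

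Rbp7 encodes a cytoplasmic retinol-binding protein of the fatty acid-binding protein family. It was 6.87 and 6.85 in diestrus, 7.56 and 7.99 at day 12, 7.57 and 6.99 at day 19, and 7.27 and 7.43 post-partum. The 2 diestrus arrays lay 0.021 log2 apart and below all 6 others, and the day 19 arrays overlapped those of day 12 and lay on either side of the post-partum ones. At day 12 Rbp7 was 0.92 ± 0.22 log2 above diestrus (SE from 1 fit of all 4 groups, n = 2 per group). Counted with its sign, this difference was larger than that of 99.9% of the 13872 genes tested. Rbp7 was chosen with its values known, so the rank is a description. Rbp7 was 0.42 ± 0.22 above diestrus at day 19 and 0.49 ± 0.22 post-partum. With each array left out in turn, the day 12 difference was 0.70 to 1.13 and the post-partum difference 0.41 to 0.57. The day 19 difference was 0.14 without replicate 1, an array high in atrial markers, and 0.71 without replicate 2, the array high in macrophage markers. The array with the higher Rbp7 value had the higher Myl7 value at day 12, at day 19 and post-partum, but not in diestrus. Post-partum both Myl7 values were low. On the 5 arrays low in Myl7, with a single array in each state but post-partum, the differences were 0.69 at day 12, 0.13 at day 19 and 0.48 post-partum.

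Markers of endothelial and fat cells, where Rbp7 is known to be expressed, were read on the same arrays. Of all genes tested, 21.7% had both day 12 arrays above both diestrus arrays and 15.6% had both below. At day 12 the 6 capillary endothelial markers averaged 0.127 and 0.027 log2 above the diestrus mean, with 3 of 6 above diestrus on both arrays and 1 below. The 7 general endothelial markers averaged 0.049 and -0.032, with 1 of 7 above on both arrays and 0 below. The 4 measured adipocyte markers averaged -0.017 and 0.152, with 1 of 4 above. Of these 4, Adipoq and Lep did not pass the filter on low values, and Adipoq, which encodes adiponectin, was 4.89 and 5.28 at day 12 against 5.16 and 5.10 in diestrus. The red cell list, with 2 measured genes, averaged 0.830 and 1.12 on the same arrays. The part of these lists in the Rbp7 result was not tested.

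The Rbp7 promoter window is shown because the mean of this gene stood above that of diestrus in all 3 states. It covers 250 bases before and 50 after the annotated start, from RefSeq on GRCm38.p6 (chr4:149454919-149455218, minus strand). Elements bound by retinoic acid receptors and retinoid X receptors were searched as AGGTCA, the form GGGTCA, the form AGTTCA and the form GGTTCA on both strands, alone and as direct repeats spaced by 1, 2 or 5 bases. CCAAT and TATATA were searched as well, and capitals mark matches. Rbp7 held none of them:
Rbp7: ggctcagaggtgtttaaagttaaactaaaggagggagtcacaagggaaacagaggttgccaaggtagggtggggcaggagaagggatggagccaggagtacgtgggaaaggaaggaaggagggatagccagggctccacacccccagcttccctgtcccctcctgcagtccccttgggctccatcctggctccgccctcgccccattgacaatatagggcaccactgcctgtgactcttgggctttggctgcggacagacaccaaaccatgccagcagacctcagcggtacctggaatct

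Rdh10 and Dhrs3 act on the same pair of molecules in opposite directions. Rdh10 was 6.57 and 6.52 in diestrus, 6.55 and 6.63 at day 12, 6.58 and 6.24 at day 19, and 6.26 and 6.45 post-partum. Both post-partum arrays lay below both diestrus arrays, by a mean of 0.19 ± 0.16 log2, and the other states overlapped diestrus. Without post-partum replicate 2 that difference was -0.095. Dhrs3 was 10.20 and 9.78 in diestrus, 10.03 and 9.76 at day 12, 9.98 and 9.78 at day 19, and 9.66 and 9.91 post-partum. Its diestrus arrays lay 0.42 log2 apart, wider than the 0.20 between its highest and lowest group means, and every state overlapped diestrus.

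Aldh1a1 and Aldh1a2, which catalyse the same reaction, went in opposite directions relative to diestrus after birth. Aldh1a1 was 8.08 and 8.49 in diestrus, 8.12 and 8.57 at day 12, 8.41 and 7.69 at day 19, and 7.46 and 7.98 post-partum. Both post-partum arrays were below both diestrus arrays, while days 12 and 19 overlapped diestrus. The post-partum difference was -0.56 ± 0.30 log2, and -0.31 without post-partum replicate 2. At day 19 it was -0.23 ± 0.30 with both arrays, 0.12 without replicate 2 and -0.59 without replicate 1.

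In each of the 4 states the array with the higher Aldh1a1 value was the one with the higher Myl7 value, although post-partum both Myl7 values were low. Fibroblast and endothelial markers were set beside Aldh1a1 as well. Post-partum, 21.1% of all genes tested had both arrays above both diestrus arrays and 21.7% had both below. The 7 fibroblast markers averaged -0.148 and 0.086 log2 relative to diestrus on post-partum replicates 2 and 4, with 1 of 7 above and 4 below diestrus on both arrays. The 7 endothelial markers averaged -0.120 and -0.071, with 2 of 7 below and 0 above. On day 19 replicates 1 and 2 the fibroblast list averaged 0.009 and -0.640 and the endothelial list -0.088 and -0.431. The Aldh1a1 values were lower on the same array of the day 19 pair as both lists. The part of these cell types in the Aldh1a1 result was not tested. On the 5 arrays low in Myl7, which hold a single diestrus array, the post-partum difference of Aldh1a1 was -0.36.

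Aldh1a2 was 5.96 and 6.45 in diestrus, 6.04 and 6.09 at day 12, 6.68 and 6.95 at day 19, and 7.18 and 7.60 post-partum. The day 12 arrays lay between the 2 diestrus arrays, both day 19 arrays were above them, and both post-partum arrays were above the day 19 ones. Post-partum the difference from diestrus was 1.18 ± 0.21 log2, and it was 0.94 to 1.43 with each array left out in turn. Counted with its sign, it was larger than that of 99.9% of the genes tested. That rank is a description too, as the gene was chosen with its values known. At day 19 the difference was 0.61 ± 0.21, or 0.36 without diestrus replicate 2. At day 12 it was -0.14 ± 0.21. Between successive states Aldh1a2 was 0.75 ± 0.21 higher at day 19 than at day 12, and 0.57 ± 0.21 higher post-partum than at day 19. The last of these was 0.36 without post-partum replicate 4. The 5 arrays low in Myl7 hold a single array of diestrus (replicate 2) and a single one of day 19 (replicate 2, high in macrophage markers). On them the difference from diestrus was 0.99 at day 19 and 1.43 post-partum, the latter as without diestrus replicate 3.

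Mesothelial and macrophage markers were set beside Aldh1a2. The 10 mesothelium and epicardium markers averaged 1.01 and -0.016 log2 relative to diestrus on day 19 replicates 1 and 2, and -0.015 and -0.188 on post-partum replicates 2 and 4. Post-partum, 1 of the 10 was above diestrus on both arrays and 4 were below, beside 21.1% and 21.7% of all genes tested. Wt1, a transcription factor of the epicardium, was 6.77 and 6.76 post-partum, against 6.49 and 6.91 in diestrus. The 7 macrophage markers averaged 0.114 and 1.40 on the day 19 arrays and 0.012 and 0.418 post-partum, with 5 of 7 and 3 of 7 above diestrus on both arrays, beside 16.4% and 21.1% of all genes tested. Their part in the Aldh1a2 result was not tested.

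**Figure D2:**
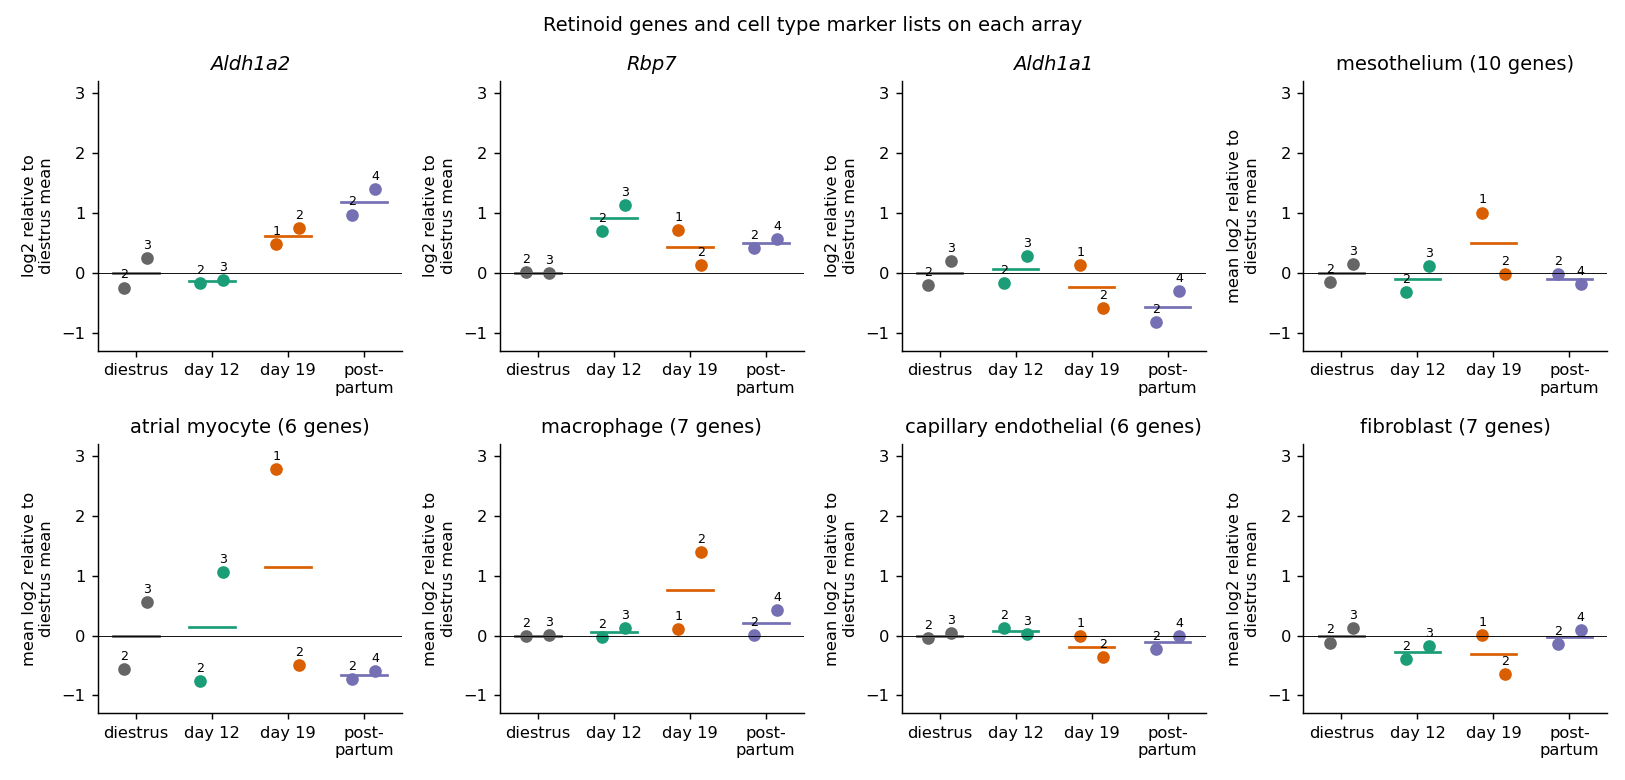
Aldh1a2, Rbp7 and Aldh1a1 (log2 relative to the diestrus mean) beside the mean log2 value of 5 marker lists on the same scale; points are arrays labelled with their replicate number and bars are means of 2 arrays. Mesothelium and atrial markers are highest on day 19 replicate 1 and macrophage markers on day 19 replicate 2, while Aldh1a2 is highest on the post-partum arrays.

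The Aldh1a2 promoter window (chr9:71215539-71215838, plus strand) is shown because this gene differed most after birth. It was 78% G and C. It held no receptor element, and the capitals mark CCAAT at positions -36 to -32 and TATATA, which reads the same on both strands, at positions -3 to 3 around the annotated start. CCAAT was found in 37.4% and TATATA in 5.67% of the 32851 promoter windows:
Aldh1a2: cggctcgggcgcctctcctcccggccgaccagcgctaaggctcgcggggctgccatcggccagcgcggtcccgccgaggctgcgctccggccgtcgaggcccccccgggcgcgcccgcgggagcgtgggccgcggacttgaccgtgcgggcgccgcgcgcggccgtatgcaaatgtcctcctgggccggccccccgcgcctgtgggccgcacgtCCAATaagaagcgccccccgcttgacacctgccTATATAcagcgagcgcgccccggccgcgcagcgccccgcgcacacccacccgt

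Cyp26b1 encodes an enzyme that hydroxylates retinoic acid and so ends its action. It was 5.55 and 5.82 in diestrus, 5.65 and 5.64 at day 12, 5.95 and 5.60 at day 19, and 5.67 and 5.92 post-partum. The values of every state overlapped those of diestrus. Cyp26b1 stood low, with group means of 5.64 to 5.79 against the filter value of 5.19. It did not pass the stricter filter, set 1 log2 higher. The differences from diestrus were -0.04 ± 0.18 at day 12, 0.09 ± 0.18 at day 19 and 0.11 ± 0.18 post-partum, and each changed sign with 1 array left out.

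Rarb, whose own promoter is a classical target of retinoic acid receptors, varied least. It was 7.40 and 7.33 in diestrus, 7.38 and 7.25 at day 12, 7.40 and 7.15 at day 19, and 7.12 and 7.42 post-partum. Its 4 group means lay within 0.095 log2, a spread that was smaller in only 4.1% of the genes tested. The differences from diestrus were -0.05, -0.09 and -0.09 at day 12, at day 19 and post-partum, each with an SE of 0.16. Rxrg, a partner of retinoic acid receptors that is found in muscle, was 9.46 and 9.25 in diestrus, 9.55 and 9.42 at day 12, 9.35 and 9.58 at day 19, and 8.99 and 9.44 post-partum. All its states overlapped diestrus, with differences of 0.13 ± 0.19, 0.11 ± 0.19 and -0.14 ± 0.19.

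The Rarb window (chr14:16575427-16575726, minus strand) is shown because it alone among the 11 windows read held a direct repeat of the receptor element. The repeat has a spacer of 5 bases (DR5), stands at positions -53 to -37, and such a repeat was found in 0.0974% of all windows. A further single element, GGGTCA, stands at -83 to -78, and single elements occurred in 43.7% of windows:
Rarb: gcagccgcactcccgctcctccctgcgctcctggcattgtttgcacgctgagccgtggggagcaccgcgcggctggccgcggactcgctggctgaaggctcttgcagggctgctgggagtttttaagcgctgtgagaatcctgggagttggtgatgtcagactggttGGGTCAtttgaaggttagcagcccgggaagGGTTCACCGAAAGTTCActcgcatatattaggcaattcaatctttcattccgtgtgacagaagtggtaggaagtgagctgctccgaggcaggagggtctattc

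RefSeq promoter windows were at hand for 7 of the 8 genes, 11 windows in all. Besides Rarb, single elements were found in 1 of the 2 windows of Aldh1a1 and in both windows of Rxrg. Repeats spaced by 1 or 2 bases, found in 0.222% and 0.268% of all windows, were in 0 of the 11. A match is a description of letters in this window.

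As a set, the 8 genes did not share a direction. Relative to diestrus, 4 were higher and 4 lower at day 12, 4 higher and 4 lower at day 19, and 3 higher and 5 lower post-partum. The median log2 differences of the set were 0.0014, 2.8e-04 and -0.12, beside 0.017, -0.029 and -0.0037 over all genes tested. Passing limma's test (adjusted p under 0.05, all 4 groups in 1 fit) were 0 of 8 at each stage, beside 0% of the 13872 genes tested in each of the 5 comparisons. At an unadjusted p under 0.05 stood 321 genes at day 12, 1011 at day 19 and 918 post-partum.

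Genes whose arrays did not overlap between states were counted beside the share of all genes tested that did the same. At day 12 both arrays stood above both diestrus arrays for 1 of 8 (Rbp7; 21.7% of all genes) and below for 0 (15.6%). At day 19 they stood above for 2 of 8 (Aldh1a2 and Rbp7; 16.4%) and below for 0 (20.4%). Post-partum they stood above for 2 (Aldh1a2 and Rbp7; 21.1%) and below for 2 (Aldh1a1 and Rdh10; 21.7%). The 3 comparisons share the diestrus arrays. Set against day 12, day 19 was above for 1 of 8 (Aldh1a2; 16.3%) and below for 0 (23.2%), and post-partum set against day 19 was above for 1 (Aldh1a2; 19%) and below for 0 (14.3%).

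**Figure D3:**
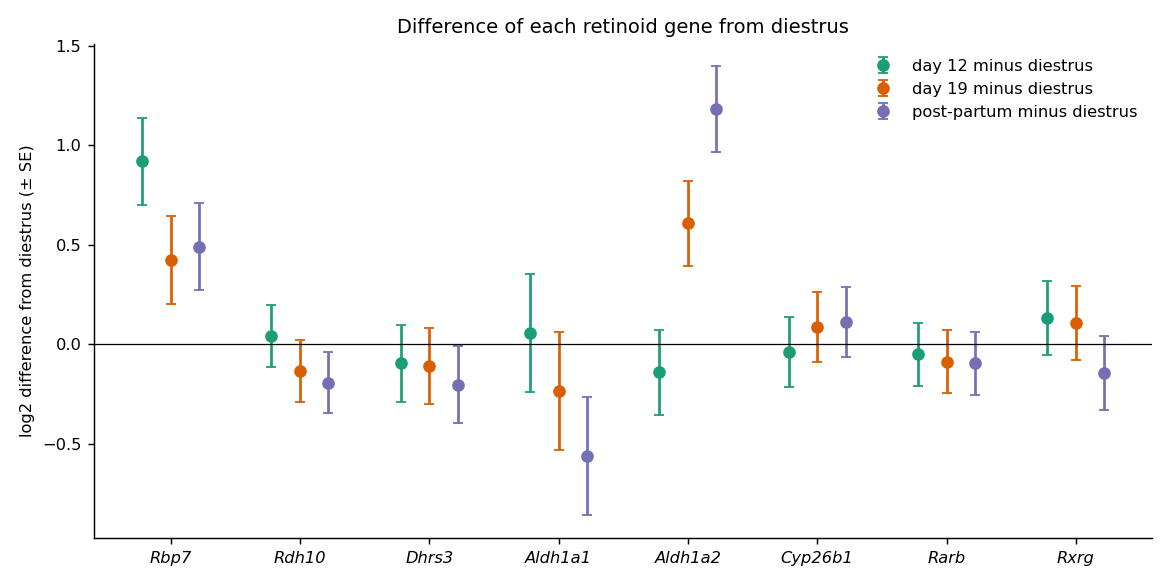
Log2 difference from diestrus (vertical axis, ± SE of the shared fit) of the 8 genes at day 12, at day 19 and post-partum. Rbp7 at 0.92 at day 12 and Aldh1a2 at 1.18 post-partum stand highest, and Aldh1a1 at -0.56 post-partum lowest.

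Other genes of vitamin A metabolism were read from a list of 61 drawn up from their known roles. Of these, 56 had a probe set of their own and 32 passed the filter on low values. In limma 0 of the 32 passed over all genes tested in each of the 5 comparisons, and the smallest adjusted p was 0.589. At an unadjusted p under 0.05 stood 0 of the 32 at day 12, 1 at day 19 and 2 post-partum against diestrus, beside 2.31%, 7.29% and 6.62% of all genes tested. Day 19 against day 12 gave 4 and post-partum against day 19 gave 2, beside 6.47% and 8.25%. The list had 14 members higher and 18 lower at day 12 (median -0.014), 12 and 20 at day 19 (median -0.085), and 17 and 15 post-partum (median 0.011).

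Farthest above diestrus at day 19 and post-partum was Tgm2, the gene of tissue transglutaminase, which responds to retinoic acid. Tgm2 was 9.63 and 9.50 in diestrus, 9.91 and 9.65 at day 12, 10.13 and 10.54 at day 19, and 9.99 and 10.12 post-partum. All 6 pregnant and post-partum arrays lay above both diestrus arrays, the closest being 9.650 on day 12 replicate 3 against 9.634 on diestrus replicate 2. How many of all genes had such a split was not counted. The differences from diestrus were 0.21 ± 0.18 at day 12, 0.77 ± 0.18 at day 19 (limma, adjusted p = 0.657) and 0.49 ± 0.18 post-partum (adjusted p = 0.722). Without day 19 replicate 2, the array high in macrophage markers, the day 19 difference of Tgm2 was 0.56. Hic1, a transcriptional repressor gene placed on the responsive list, was 6.60 and 6.44 post-partum, against 6.01 and 6.18 in diestrus, a difference of 0.42 ± 0.13 (adjusted p = 0.722). Against day 19, where it was 5.88 and 5.91, Hic1 was 0.62 ± 0.13 higher post-partum (adjusted p = 0.589).

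Genes of retinol supply stood low or varied between the arrays of a state. Rbp4, the carrier of retinol in blood, was 5.10 and 5.79 in diestrus, 5.39 and 5.86 at day 12, 6.51 and 5.36 at day 19, and 6.03 and 5.64 post-partum, and differed from diestrus by 0.18, 0.49 and 0.39, each with an SE of 0.39. The day 12 difference was -0.051 without day 12 replicate 3, and the day 19 difference -0.083 without day 19 replicate 1. Stra6, its receptor, was 5.24 and 6.13 in diestrus, 5.15 and 5.62 at day 12, 5.83 and 5.52 at day 19, and 5.55 and 5.26 post-partum. Both were higher on the arrays with the higher Myl7 value in diestrus, at day 12 and at day 19. Adh1, an alcohol dehydrogenase that can oxidise retinol, was the lowest of the list against diestrus, with 7.80 and 8.03 at day 12, 8.24 and 7.20 at day 19 and 7.75 and 7.72 post-partum, against 7.87 and 8.97 in diestrus. Its differences of -0.51, -0.70 and -0.69 had an SE of 0.41, and diestrus replicate 3 lay above all the other arrays. Without that array they were 0.041, -0.15 and -0.14.

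The other enzymes and binding proteins named by size of difference showed no gene past the threshold. At day 12 Scarb1, a lipoprotein receptor, was 0.26 ± 0.17 above diestrus and Adh5, an alcohol dehydrogenase, was at -0.18 ± 0.18. At day 19 Ttr, transthyretin, which carries Rbp4 in blood, was at 0.30 ± 0.14. Ttr stood low, at 5.34 and 5.52 at day 19 against 5.14 and 5.12 in diestrus. Its group mean reached the filter value of 5.19 only at day 19. Fabp5, a lipid-binding protein that also binds retinoic acid, was at -0.46 ± 0.28 at day 19. Fabp5 was 7.44 and 6.55 at day 19, against 7.22 and 7.68 in diestrus, and its difference was -0.015 without day 19 replicate 2. Nrip1, a nuclear receptor co-repressor, was 7.36 and 6.76 at day 19, against 7.54 and 7.43 in diestrus. Its difference was -0.42 ± 0.21, or -0.13 without day 19 replicate 2. Post-partum Dgat1, which can esterify retinol, was at -0.35 ± 0.18 and Rdh11, a retinal reductase, at -0.32 ± 0.15. Against day 12, day 19 gave 0.38 for Ttr, 0.31 for Rbp4, 0.56 for Tgm2, -0.57 for Fabp5, -0.53 for Nrip1 and -0.41 for Scarb1. Without day 19 replicate 2 Fabp5 was at -0.12, Nrip1 at -0.23 and Tgm2 at 0.35, and without replicate 1 Rbp4 was at -0.27. Against day 19, post-partum gave 0.46 for the retinol dehydrogenase gene Rdh14, 0.40 for Aldh1b1, -0.33 for Ttr, -0.30 for Rdh11 and -0.28 for Tgm2. Without day 19 replicate 2 these were 0.18 for Rdh14, 0.095 for Aldh1b1 and -0.075 for Tgm2.

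The more widely expressed receptors were read in the same way. Rara differed from diestrus by -0.06, 0.10 and 0.12, Rarg by -0.0045, 0.0052 and 0.11, and Rxrb by -0.05, 0.0056 and 0.26 at day 12, at day 19 and post-partum. The last of these was -0.11 without post-partum replicate 2. Rxra, the main retinoid X receptor of heart muscle, was 7.80 and 7.89 at day 19, against 8.12 and 8.15 in diestrus, a difference of -0.29 ± 0.13 (limma, adjusted p = 0.657). It was 8.10 and 8.09 at day 12 and 8.17 and 8.02 post-partum. Both day 19 arrays lay below all 6 other arrays for Rxra, and how many of all genes had such a split was not counted.

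Aldh1a3, the remaining retinal dehydrogenase of the family, differed from diestrus by 0.16, 0.11 and 0.10 with an SE of 0.19, and the first of these was -0.095 without day 12 replicate 3. Cyp26a1 and Crabp2 did not pass the filter: Cyp26a1, a retinoic acid hydroxylase, ranged from 4.30 to 4.99 and Crabp2, a retinoic acid-binding protein, from 4.75 to 5.12 over the 8 arrays.

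**Figure D4:**
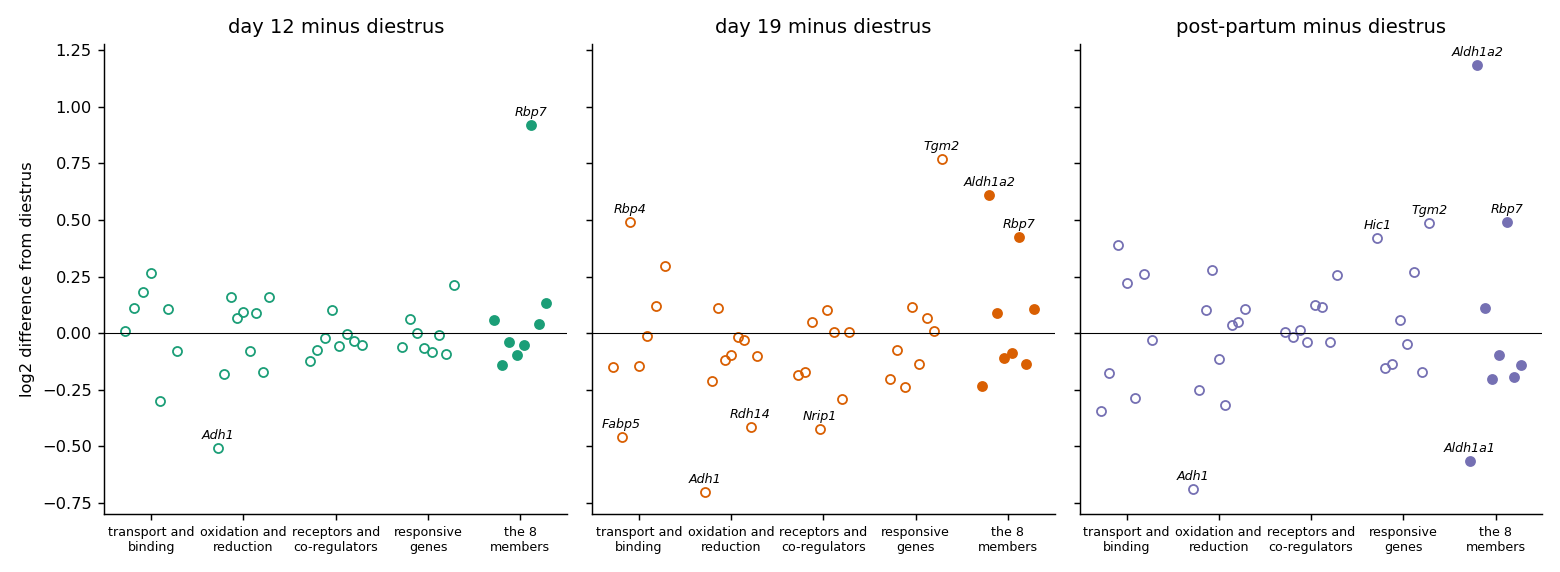
Log2 difference from diestrus (vertical axis) of 32 further retinoid genes in 4 lists (open points) and of the 8 genes (filled points) at day 12, at day 19 and post-partum; genes beyond 0.4 are named. Tgm2 at 0.77 and Adh1 at -0.70, both at day 19, are the farthest of the open points, and Adh1 is at -0.15 there without diestrus replicate 3.

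The genes whose arrays ran most like those of Aldh1a2, Rbp7 and Aldh1a1 were found by the root mean square of the difference in log2 value over the 8 arrays, after centring each gene on its own mean. They were sought among all genes tested, with predicted, small RNA and olfactory receptor genes left out. The 3 nearest to Aldh1a2 were Ccna2, cyclin A2 (0.19 log2), Mcm5, a subunit of the replicative helicase (0.22), and E2f1, a transcription factor (0.23). Ccna2 was 7.23 and 7.23 post-partum, against 5.88 and 6.15 in diestrus. The 3 nearest to Rbp7 were Ankrd45 (0.20), the beta-tropomyosin gene Tpm2 (0.21) and the phosphorylase kinase subunit gene Phka1 (0.21). They were chosen for a like course over the arrays, so their course is a description.

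The 3 nearest to Aldh1a1 were closer to it than those of Aldh1a2 and Rbp7 were to theirs. They were Dpt, the matrix protein dermatopontin (0.10 log2), the proton pump subunit gene Atp6v0e2 (0.10) and Tek, the angiopoietin receptor of endothelial cells (0.12). Dpt was 11.06 and 11.74 post-partum against 11.79 and 12.07 in diestrus, and Tek 8.58 and 8.97 against 9.21 and 9.37. Dpt is on the fibroblast list and Tek on the endothelial list, and both were found by their likeness to Aldh1a1. Post-partum, 4 of the 7 fibroblast markers were below diestrus on both arrays, 1 was above and 2 overlapped. Of the 7 endothelial markers 2 were below, 0 above and 5 overlapped.

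**Figure D5:**
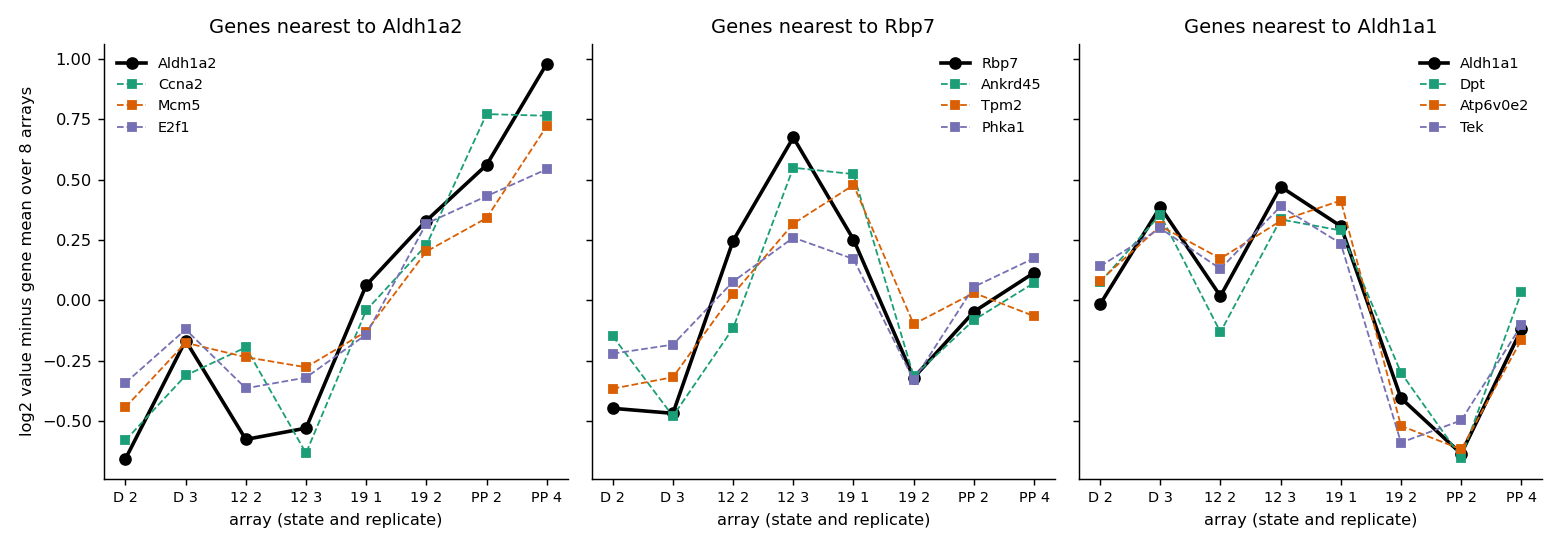
Log2 value minus the gene's mean over the 8 arrays for Aldh1a2, Rbp7 and Aldh1a1 (solid lines) and the 3 genes nearest to each (dashed lines); the horizontal axis gives the arrays as state (D, diestrus; 12 and 19, days of pregnancy; PP, post-partum) and replicate. The nearest genes of Aldh1a1 lie within 0.10 to 0.12 log2 of it, those of Aldh1a2 within 0.19 to 0.23.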

How the data were processed

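Left ventricle RNA (100 ng) was labelled with biotin and hybridised to 1-colour expression arrays. The authors deposited 1 log2 value per probe set and array. Per the submitters' processing notes these come from Affymetrix Expression Console and its RMA method, which equalises arrays, so a change in total RNA cannot be seen. The program version, library file and genome build were not given in the sources used here. The table holds 34365 probe sets on 8 arrays, and the platform annotation gave 23521 of them a single symbol, 1814 several and 9030 none here. Of these, 23328 matched a RefSeq gene of GRCm38.p6 by Entrez identifier, and 0 symbols changed. The probe set with the highest mean was used per gene (22180 genes), and a gene was tested if a group mean reached 5.19, the median of all values (13872 genes, all 8 retinoid genes among them).

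With limma 3.58.1 (R 4.3.3), the 8 arrays were fitted together by group (4 residual and 3.68 prior degrees of freedom), two-sided, with Benjamini-Hochberg adjustment over all genes tested and a threshold of 0.05. The fit was run on simulated data with 4-fold changes, larger than any difference of the 8 genes. That run does not show how well changes of the sizes reported here are found. The number of arrays limits the precision, with a typical SE of 0.17 log2. The 8 genes, the other lists and the rules were chosen with earlier results of these data known. Named from the further list of 61 retinoid genes were the 3 largest rises and falls per comparison and a fixed set of receptors, transport and breakdown genes.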

Additional observations from a re-analysis of the deposited data

How the results depend on the processing

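The 8 genes' differences were recomputed with arrays weighted, with a variance trend fitted robustly, without and with a stricter filter, with only the 2 groups compared, the mean of all probe sets, a replicate block, each array left out, and, chosen after seeing the data, on the 5 arrays low in Myl7. With each array left out in turn, 26 of the 40 differences of the 8 genes took the other sign under at least 1 choice. Array weights called 1 gene at day 12, and the trended variance called 1 post-partum against day 19. The stricter filter, which Cyp26b1 did not pass, left 1 retinoid gene of the set higher at day 19 against day 12. With the replicate block 18, 2465 and 599 genes passed against diestrus (day 12, then day 19, then post-partum), 2635 at day 19 against day 12 and 2442 post-partum against day 19. Of the further retinoid genes 4, 1, 4 and 6 then passed in the last 4 of these comparisons. As the 8 genes were chosen with their values known, passing is only a description for them. Against diestrus it held for 0 of 8 at day 12, 1 at day 19 and 1 post-partum (Aldh1a2 in both). At day 19 against day 12 it held for 2 (Aldh1a2 and Rbp7), and post-partum against day 19 for 1 (Rxrg). These stand beside the 18, 2465, 599, 2635 and 2442 of all 13872 genes tested. Without the block 0 of the 8 passed in each comparison, and the same held with array weights and with the trended variance. With the block, the Aldh1a2 difference post-partum against day 19 was 0.23 in place of 0.57. The replicate block fit has 1 residual degree of freedom. The titles give no meaning to the replicate numbers. Number 2 occurs in all 4 states, and number 3 in diestrus and at day 12 only. Across genes, the differences between replicates 2 and 3 in these 2 states correlated at r = 0.11. On the 5 arrays 327, 282 and 346 genes passed at day 19 against diestrus, at day 19 against day 12 and post-partum against day 19, and 7 of the 8 genes were higher in the last. With each array left out, which leaves 1 array in its state that is assumed to vary like the other groups, genes called ranged from 0 to 1 at day 12, 0 to 1233 at day 19, 0 to 3 post-partum, 0 to 1312 at day 19 against day 12 and 0 to 872 post-partum against day 19, the upper values of the day 19 comparisons coming without day 19 replicate 1, that at day 12 without diestrus replicate 2 and that post-partum without post-partum replicate 4. Further retinoid genes called then ranged from 0 to 2 at day 19 (Tgm2 and Fabp5 without replicate 1) and 0 to 3 at day 19 against day 12 (with Nrip1), and were 0 in the other comparisons. Genes of the set that were higher ranged from 4 to 6, 3 to 6 and 2 to 5 against diestrus, 2 to 5 at day 19 against day 12 and 1 to 7 post-partum against day 19.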
